A study of Mus musculus with 8 samples.

Results

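Genes of the motile cilium and its axoneme were examined by RNA sequencing in 4 control and 4 Sufu-cKO samples of dorsal forebrain, a region that contains the early neocortex. The embryos were male mice of age E12.5. The genes were chosen by symbol. A protein-coding gene was a member if its symbol named a heavy chain (Dnah), intermediate chain or assembly factor (Dnaaf) of axonemal dynein, a radial spoke protein (Rsph), a cilia and flagella associated protein (Cfap), a tektin, or a Drc subunit of the nexin-dynein regulatory complex. Spag6, Spag16, Spag17, Ak7, Ak8, Ccdc39, Ccdc40 and Foxj1 completed the list. This gave 60 gene IDs, with 59 different symbols because Cfap46 stands on 2 neighbouring IDs, out of 43629 gene IDs in the counts, 22196 of them protein coding.

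Samples named Mut_295, Mut_317, Mut_337 and Mut_340 form the Sufu-cKO group, with 1 Emx1-cre allele and homozygous floxed Sufu. The controls (Cont_294, Cont_345, Cont_365 and Cont_370) were Sufu-fl/fl or Sufu-fl/+, without a label that says which sample was which, and all 8 were on a mixed background with C57BL/6J. Emx1-cre acts in progenitors of the dorsal telencephalon and in their descendants, so other cells of the dissected piece keep SUFU, an inhibitor of hedgehog signalling. The labels do not say whether a sample was 1 embryo or a pool, or whether litters were shared, so a p-value here describes variation among these libraries, which may be technical.

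Motile cilia beat because dynein motors, attached in an outer and an inner row of arms to the outer doublet microtubules, slide the doublets against each other. Radial spokes and a central pair of microtubules pass signals to the arms, the nexin-dynein regulatory complex links neighbouring doublets, and proteins inside the microtubules stiffen them. FOXJ1, with factors of the RFX family, is known as the main transcriptional activator of this programme. In the developing forebrain, neural progenitors bear a single primary cilium, which transduces hedgehog signals, whereas the epithelium of the choroid plexus and later the ependyma bear motile cilia.

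RFX factors bind the X-box, a pair of inverted half-sites found near the start of many cilia genes, so the promoters of members were searched for it. Windows from 250 bases before to 50 bases after the start site (RefSeq, GRCm38.p6) could be matched to 48 of the 60 members. A strict X-box, GTTNCC followed after 0 to 3 bases by GGNAAC on either strand, was in 0 of 48 members and in 0.936% of all 27025 genes with a window. A shorter form was chosen after the windows had been seen, so its count is a description of these members only. It is GTTGC followed after 2 to 5 bases by GCAAC, a sequence that reads alike on both strands. It was in the windows of 9 of 48 members (18.8%), against 0.503% of all genes with a window and 0.737% of the tested genes with one. The 7 stretches below show it in capitals on the gene's strand, with 20 bases on either side: first in the 5 called members that hold it, then in a pair of near-identical inner arm genes that did not pass the test.
Dnah6: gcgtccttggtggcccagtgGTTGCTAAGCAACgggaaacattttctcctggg
Tekt4: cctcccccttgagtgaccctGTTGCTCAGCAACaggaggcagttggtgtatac
Cfap44: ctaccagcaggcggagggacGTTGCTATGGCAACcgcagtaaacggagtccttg
Tekt2: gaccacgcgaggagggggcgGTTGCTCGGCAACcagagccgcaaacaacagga
Dnaic2: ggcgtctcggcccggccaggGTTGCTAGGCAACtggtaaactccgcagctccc
Dnah7a: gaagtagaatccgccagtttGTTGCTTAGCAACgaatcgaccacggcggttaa
Dnah7b: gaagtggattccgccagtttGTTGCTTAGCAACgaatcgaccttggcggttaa

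These stretches lie at chr6:73221635-73221687 (Dnah6, minus strand), chr17:25471534-25471586 (Tekt4, plus), chr16:44394752-44394805 (Cfap44, plus), chr4:126325685-126325737 (Tekt2, minus), chr11:114727366-114727418 (Dnaic2, plus), chr1:53706809-53706861 (Dnah7a, minus) and chr1:46066809-46066861 (Dnah7b, plus). The first capital stands between 57 bases (Dnah7a) and 24 bases (Dnah7b) before the start site. Rsph3b and Dnah7c held the same short form. The half-site GTTGCC alone was in 33.3% of the 48 members, 14.1% of all genes with a window and 15.3% of the tested genes with one. The forkhead motif TGTTTAC, which FOX factors can bind, was in 10.4%, 4.05% and 2.96% in that order. Both strands were counted and overlaps with the X-box allowed. Among members with a window, the short form was in 5 of 14 that were called lower in Sufu-cKO and in 3 of 27 that were tested and not called. Of these 3, Dnah7a and Dnah7b are near copies of each other. This split was not tested, because the short form was chosen after the windows had been seen. The half-site GTTGCC was in 5 of the same 14 (35.7%) and 10 of the same 27 (37%), and the forkhead motif in 1 (7.14%) and 3 (11.1%). Members without a matched window were Rsph10b, Dnah3, Rsph4a, Cfap54, Cfap97, Dnaaf1, Foxj1, Rsph1 and Cfap53, and for Dnah14, Spag6 and 1 of the Cfap46 IDs the table's window lay elsewhere. A match is a description of letters and not a bound site.

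Sufu, the deleted gene (ENSMUSG00000025231, chromosome 19, 46396896 to 46488804, GRCm38), lay at 105 to 125 CPM (read counts scaled to library size) in controls and 35.9 to 44.8 CPM in Sufu-cKO samples, with no overlap. Total counts ran from 27514357 to 34878838 per sample. Dorsal progenitor markers were present throughout, with Pax6 at 213 to 362 and Emx1 at 24.1 to 56.6 CPM over the 8 samples. The floor plate genes Shh, Foxa2 and Foxa1 had at most 4 counts in any sample. Mut_340 stood apart for the cilia genes: it was the lowest of the 8 samples for 32 of 52 tested members, and for 21.7% of all tested genes. Results that rest on it are given with and without it.

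Of the 60 members, 52 had enough reads to be tested and 8 did not. Of the 52 tested members, 19 passed the test as lower in Sufu-cKO, 13 of these by at least 2-fold, 0 passed as higher and 33 did not pass (edgeR quasi-likelihood test over 15382 genes, adjusted p under 0.05). That is 36.5% of the tested members, where 5.64% of all tested genes were called lower and 5.34% higher. Beyond the 0 calls, the largest rise was that of Dnah1 (log2 fold change 0.40, edgeR adjusted p = 0.0669, unadjusted p = 0.00833), which DESeq2 called (adjusted p = 0.0325). In 28 tested members (53.8%) all 4 Sufu-cKO values were below all 4 control values, and in 0 they were all above, where the shares over all tested genes were 7.86% and 8.33%. The median log2 fold change was -0.68 over the tested members and 0.01 over all tested genes, and 44 of 52 members were below 0 (84.6%, against 48.2% of tested genes). All 19 called members were also lower in the authors' deposited table at a false discovery rate under 0.05. That table called 22 of the 60 members lower, against 3.1% of 25299 genes with any count. The sets differ in level: 15382 of the 25299 genes passed the filter used here, and 52 of the 60 members.

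The called genes were spread over 12 chromosomes. Without Mut_340 the count was again 19 lower, 18 of them the same genes, with Foxj1 gained and Dnaic2 lost, and the median was -0.61. Over the fits that leave out 1 sample, 13 of the 19 were called every time. Their counts were small, so that single samples carry weight: summed over the 8 samples, the rarest called genes, Dnah3 and Tekt4, had 130 counts each. In bulk RNA, fewer cells that make these transcripts and less transcript per cell cannot be told apart.

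**Figure D1:**
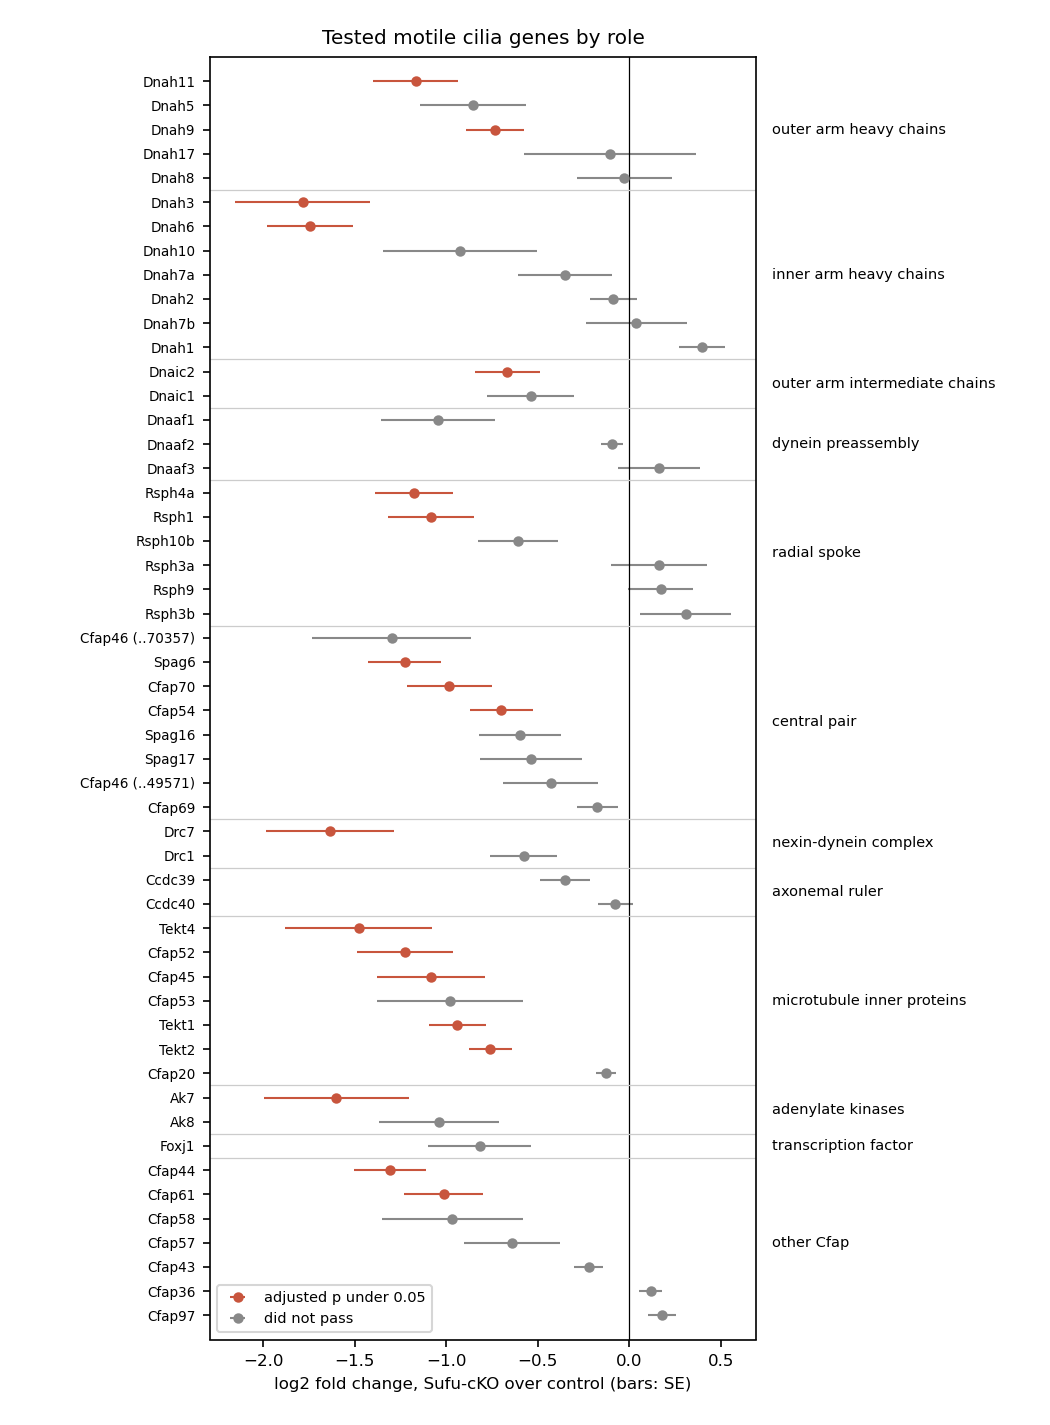
Log2 fold change of each of the 52 tested members, Sufu-cKO over control, grouped by role, with the standard error as a bar. Red points passed the test (19 genes, all below 0) and grey points did not. The IDs of the Cfap46 pair are shortened.

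Foxj1 (ENSMUSG00000034227, chromosome 11, 116330704 to 116335399), the transcription factor of the programme, lay at 24.3, 29.5, 33.3 and 29.4 CPM in Cont_294, Cont_345, Cont_365 and Cont_370. The Sufu-cKO samples were at 20.99 (Mut_295), 18.7 (Mut_317), 18.8 (Mut_337) and 7.56 CPM (Mut_340). All Sufu-cKO samples were below all controls, and Mut_340 was far below the other Sufu-cKO samples. The log2 fold change of -0.82 (SE 0.28) did not pass the test (edgeR adjusted p = 0.125). Without Mut_340, where the Sufu-cKO samples lay close together, the fold change was smaller and passed (-0.58, edgeR adjusted p = 0.00661). In the authors' deposited table Foxj1 was at 0.567 of control with a false discovery rate of 0.00761.

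Among the outer arm heavy chains, the motors that set beat frequency, 2 of 5 were lower. Dnah11 (ENSMUSG00000018581, chromosome 12, 117877982 to 118199043), the motor of the proximal cilium, had 2.54, 3.61, 2.84 and 3.28 CPM in the controls in the order above and 1.29, 1.62, 1.70 and 0.840 CPM in Mut_295, Mut_317, Mut_337 and Mut_340. The groups were apart (2.25-fold lower, SE 0.23 on the log2 scale, edgeR adjusted p = 0.00637). Dnah9, the motor of the distal cilium, went from 5.66 ± 0.854 to 3.40 ± 0.408 CPM (SD, n = 4 each), also without overlap (log2 fold change -0.73, edgeR adjusted p = 0.0103). Dnah5, a heavy chain present along the whole cilium, was at 0.886 ± 0.229 and 0.486 ± 0.133 CPM and did not pass. Dnah8 and Dnah17, whose products are known from the sperm tail, had control means of 1.09 and 0.343 CPM and log2 fold changes of -0.03 and -0.10, both of either sign when single samples were left out. The intermediate chain gene Dnaic2 was lower (4.81 ± 0.362 against 3.03 ± 0.732 CPM, edgeR adjusted p = 0.0305), but only the fit without Mut_295 kept that call, and the other 7 gave adjusted p up to 0.0862. Its partner Dnaic1 had a log2 fold change of -0.54 and did not pass.

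The inner arm heavy chains, which shape the waveform, held both the largest falls and the largest rise among the members. Dnah6 (ENSMUSG00000052861, chromosome 6, 73017606 to 73221651) had 8.99, 8.39, 8.69 and 9.52 CPM in the controls and 2.48, 3.80, 2.96 and 1.39 CPM in Mut_295, Mut_317, Mut_337 and Mut_340. Every Sufu-cKO sample was under 50% of every control. It was the gene with the smallest adjusted p among the members (3.35-fold lower, log2 fold change -1.74, SE 0.24, edgeR adjusted p = 0.000592). Dnah6 lies 11.97 Mb from Emx1, where the cre allele sits.

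Dnah3 fell as steeply (log2 fold change -1.79, SE 0.37, edgeR adjusted p = 0.00834) but from few reads: 29, 22, 23 and 27 counts in the controls and 8, 10, 9 and 2 in the Sufu-cKO samples. Of its exon bases, 10.5% overlap those of Lyrm1 on the opposite strand, and whether the counting used strand is not given in the sources used here. Dnah10 (log2 fold change -0.92), Dnah2 (-0.09) and the Dnah7 genes (Dnah7a -0.35, Dnah7b 0.04) did not pass, and Dnah7b was below 0 without Cont_294, Cont_345, Cont_365, Mut_337 or Mut_340. Dnah7a, Dnah7b and the untested Dnah7c are near copies of each other, so reads may be split between them and their values are uncertain.

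Dnah1 (chromosome 14, 31260375 to 31323896) went the other way, with 8.23, 9.37, 8.25 and 9.46 CPM in the controls and 12.2, 12.2, 12.9 and 9.14 CPM in the Sufu-cKO samples. Mut_340 lay among the controls, and the other 3 Sufu-cKO samples above them. Without Mut_340 the rise passed the test (log2 fold change 0.49, edgeR adjusted p = 0.0145), and the authors' deposited table lists a ratio of 1.31 with a false discovery rate of 0.0441.

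**Figure D2:**
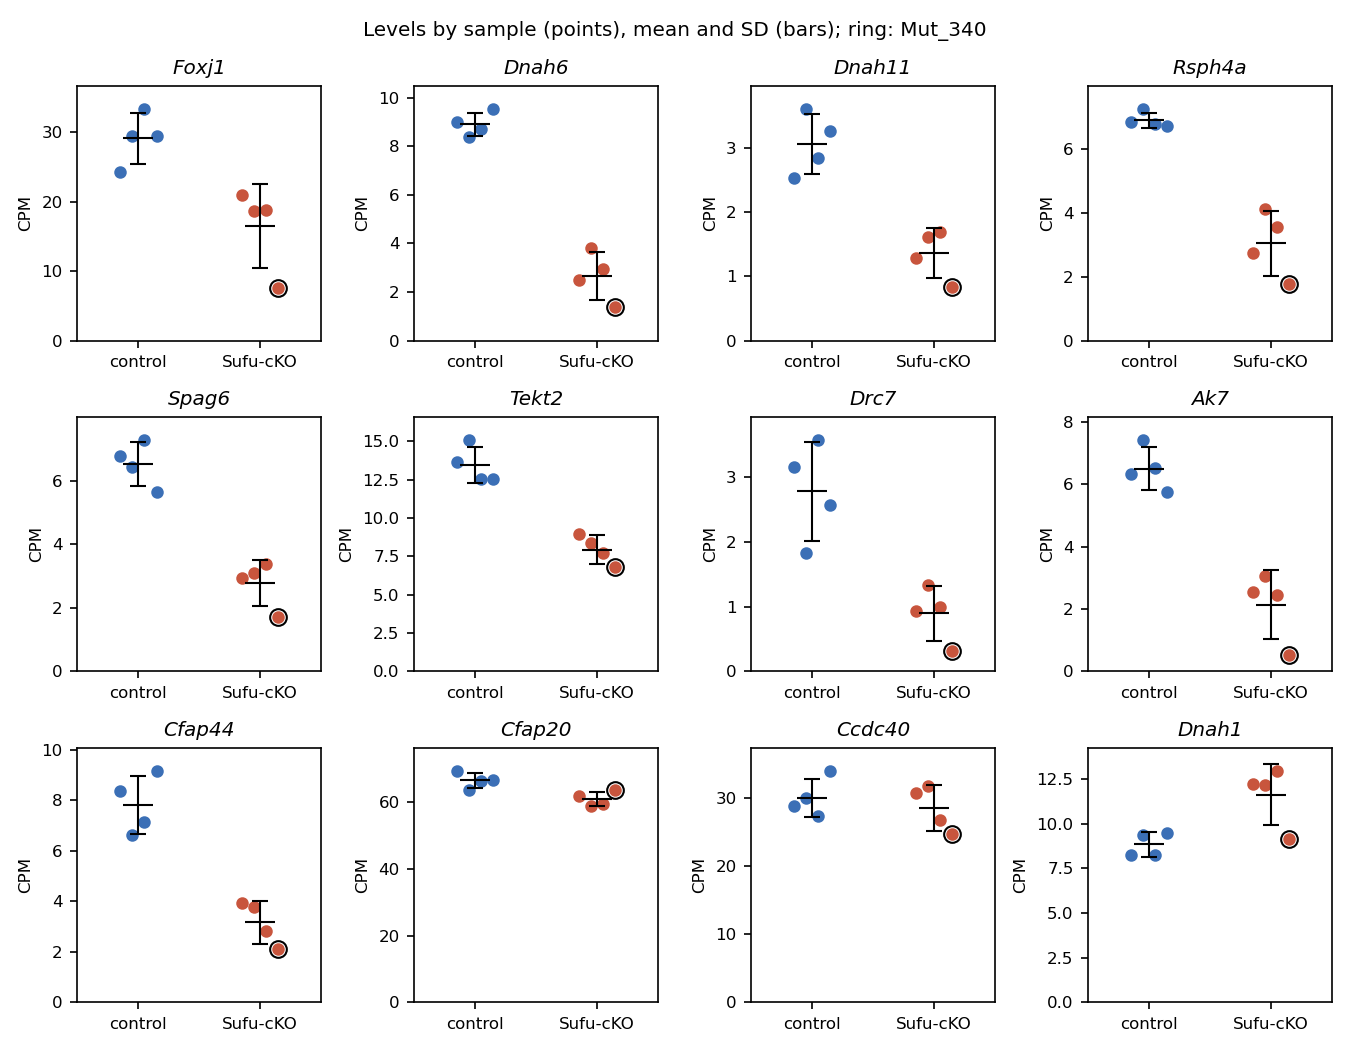
CPM of 12 members in each control (blue) and Sufu-cKO sample (red), with the mean and SD as black bars and Mut_340 ringed. Groups are apart for Foxj1, Dnah6, Dnah11, Rsph4a, Spag6, Tekt2, Drc7, Ak7, Cfap44 and Cfap20, and overlap for Ccdc40 and Dnah1.

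Dynein arms are put together in the cytoplasm by assembly factors, and 0 of 3 of these passed. Dnaaf1 was at 0.583, 1.021, 0.632 and 0.593 CPM in the controls and 0.331, 0.352, 0.440 and 0.226 CPM in the Sufu-cKO samples, apart but on 7 to 28 counts (log2 fold change -1.04, edgeR adjusted p = 0.0533, and 0.0498 with upper quartile scaling). Its exons overlap Taf1c on the opposite strand over 20.7% of their length. Dnaaf2, at 40.8 ± 1.45 and 38.3 ± 0.783 CPM, and Dnaaf3, at 4.05 ± 0.896 and 4.54 ± 1.36 CPM, differed by less than 0.2 on the log2 scale, and the sign for Dnaaf3 turned without Mut_295. A non-coding gene, 9330151L19Rik, overlaps 32.7% of the Dnaaf2 exon bases on the opposite strand, and gene models on the same strand overlap others.

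Among the radial spoke genes, 2 of 6 tested members were lower. Rsph4a (ENSMUSG00000039552, chromosome 10, 33905111 to 33916021), a spoke head protein, was nearly constant in the controls at 6.86, 7.26, 6.79 and 6.72 CPM and lay at 2.75, 4.12, 3.58 and 1.78 CPM in Mut_295, Mut_317, Mut_337 and Mut_340 (log2 fold change -1.18, SE 0.21, edgeR adjusted p = 0.00402). The groups were widely apart. Rsph1, another spoke head protein, went from 4.64 ± 0.426 to 2.19 ± 0.733 CPM (edgeR adjusted p = 0.0107). Rsph10b had no overlap either (3.42 ± 0.427 and 2.24 ± 0.652 CPM) but did not pass (edgeR adjusted p = 0.110), although the authors' deposited table calls it lower (false discovery rate 0.0444). Rsph9, a spoke head protein as well, and the stalk genes Rsph3a and Rsph3b, near copies of each other, had log2 fold changes of 0.17, 0.16 and 0.31, and their groups overlapped. Rsph3a was below 0 without Cont_294.

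All 8 tested genes placed with the central pair had log2 fold changes below 0, and 3 passed. Spag6 (chromosome 16, 16753016 to 16829456), a central pair protein needed for ciliary beating, had 6.76, 6.42, 7.27 and 5.65 CPM in the controls and 2.95, 3.10, 3.37 and 1.71 CPM in the Sufu-cKO samples. With no overlap, it was 2.34-fold lower (SE 0.20 on the log2 scale, edgeR adjusted p = 0.00176). Another Spag6 copy lies on chromosome 2, so reads may be split between them. Cfap70 (1.92 ± 0.278 against 0.970 ± 0.239 CPM, edgeR adjusted p = 0.0177) and Cfap54 (7.45 ± 1.68 against 4.59 ± 0.509 CPM, edgeR adjusted p = 0.0206) were also lower. Cfap70 missed the threshold without Cont_294 (adjusted p = 0.0505), and Cfap54 without Mut_317, Cont_345 or Cont_370 (up to 0.0671).

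Spag16 and Spag17, 2 further central pair proteins, had log2 fold changes of -0.60 and -0.54 with overlapping groups. The IDs of Cfap46 had -1.30 (ENSMUSG00000070357, edgeR adjusted p = 0.0831) and -0.43 (ENSMUSG00000049571). Cfap69 was close to level (-0.18).

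The nexin-dynein regulatory complex had 2 tested members. Drc7 (ENSMUSG00000031786, chromosome 8, 95055103 to 95078141) lay at 3.16, 1.82, 3.57 and 2.57 CPM in the controls and 0.927, 1.34, 0.996 and 0.323 CPM in the Sufu-cKO samples. It was 3.11-fold lower, and the groups did not overlap (edgeR adjusted p = 0.0106). Drc1 went from 4.09 ± 0.537 to 2.74 ± 0.582 CPM and was apart as well, with adjusted p = 0.0682 by edgeR and 0.0383 by DESeq2. Ccdc39 and Ccdc40, which form the ruler that spaces spokes and arms along the doublet, did not pass. Ccdc40 was at 30.0 ± 2.80 and 28.5 ± 3.32 CPM, and Ccdc39, whose exons overlap Ttc14 on the opposite strand over 16.9% of their length, at 16.3 ± 3.41 and 12.8 ± 0.837 CPM.

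Proteins that line the inside of the doublets had the highest share of calls among the larger roles, 5 of 7 tested. Tekt2 (ENSMUSG00000028845, chromosome 4, 126322121 to 126325688), a tektin, had 13.6, 15.1, 12.51 and 12.6 CPM in the controls and 8.94, 8.34, 7.71 and 6.78 CPM in the Sufu-cKO samples (log2 fold change -0.76, SE 0.12, edgeR adjusted p = 0.00123). The non-coding gene Gm12945 overlaps 20.8% of its exon bases on the opposite strand. Tekt1 fell from 7.71 ± 0.518 to 4.02 ± 0.776 CPM (edgeR adjusted p = 0.00220). Cfap52, which like Cfap45 lines the B tubule of the doublet, fell from 6.604 ± 0.582 to 2.83 ± 1.118 CPM (edgeR adjusted p = 0.0112). Cfap45 fell from 3.17 ± 0.674 to 1.49 ± 0.598 CPM (0.0349), a call lost without Mut_317, Cont_294, Cont_345 or Cont_365 (up to 0.0988). Tekt4, on 20 to 31 counts in controls and 2 to 13 in Sufu-cKO, was 2.79-fold lower (0.0333) and lost its call without Mut_295 or any 1 of the 4 controls (up to 0.0871).

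The inner junction protein gene Cfap20 differed from these. It was at 69.4, 63.9, 66.3 and 66.9 CPM in the controls and 61.8, 59.0, 59.5 and 63.6 CPM in the Sufu-cKO samples. The groups were just apart, but the log2 fold change was -0.13 and did not pass (edgeR adjusted p = 0.188). Cfap53 had -0.98 with overlapping groups.

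Adenylate kinases of the axoneme pass phosphate between nucleotides where dynein uses ATP. Ak7 had 6.31, 7.40, 6.51 and 5.73 CPM in the controls and 2.55, 3.06, 2.43 and 0.517 CPM in the Sufu-cKO samples, 16 counts in Mut_340 against 184 to 206 in the controls. It was 3.03-fold lower without overlap (edgeR adjusted p = 0.0305). That call rested on the combination of samples: it held without Mut_340 (adjusted p = 0.000631) or Mut_317, and was lost without Mut_295, Mut_337 or any 1 of the 4 controls (up to 0.0863), as well as with no low-count filter (0.0987). Ak8 went from 0.921 ± 0.309 to 0.449 ± 0.138 CPM with overlapping groups (adjusted p = 0.0652).

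Of 7 other Cfap genes, 2 were lower. Cfap44 (ENSMUSG00000071550, chromosome 16, 44394796 to 44482428), part of the tether that holds an inner arm motor to the doublet, had 8.37, 6.64, 7.14 and 9.15 CPM in the controls and 3.94, 3.77, 2.84 and 2.13 CPM in the Sufu-cKO samples (2.47-fold lower, edgeR adjusted p = 0.00116). Cfap61, of a complex at the base of the spokes, fell from 2.81 ± 0.451 to 1.39 ± 0.327 CPM (edgeR adjusted p = 0.00954). Cfap43, the tether partner of Cfap44, was at 41.0 ± 1.79 and 35.1 ± 3.92 CPM, with a log2 fold change of -0.22 that did not pass. Cfap43 and Cfap58 (-0.97, adjusted p = 0.151) lie 1.25 and 1.45 Mb from Sufu, and neither was called in the 8 samples. Cfap57 had -0.64 and was not called.

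The 8 untested members had few counts and did not pass the filter, so the main fit has no test for them. In 3 of them, Dnah12, Cfap221 and Rsph14, all Sufu-cKO values were below all control values. No share over other genes below the filter was taken, so this count has no background beside it. With no low-count filter these 3 did not pass (edgeR adjusted p = 0.326, 0.0673 and 0.113 in that order). Cfap221 passed the filter in some fits that leave out 1 sample and was called lower in 1 of these, without Mut_295 (edgeR adjusted p = 0.0293, up to 0.137 in the others). Dnah12 had 7 to 9 counts per control and 3 to 6 per Sufu-cKO sample, Cfap221 10 to 15 and 1 to 8, and Dnah7c 4 to 12 and 6 to 11. Rsph14 had 1 to 10 counts over all samples. Tekt3, Tekt5, Dnah14 and Rsph6a were at 0 in at least 1 sample, where a count of 0 allows up to 3 counts, or 0.0847 to 0.109 CPM. These limits cover counting error only.

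Levels were also compared per kilobase of exon, which allows genes to be ranked. The most abundant members per kilobase in controls were Cfap36 (16.7 CPM per kilobase), Cfap20 (14.97), Dnaaf2 (12.05), Foxj1 (11.1), Tekt2 (7.07), Cfap97 (6.27), Cfap43 (5.81), Ccdc40 (4.98), Tekt1 (4.76) and Rsph1 (3.38). Of these 10, 3 were called lower and their median log2 fold change was -0.17. Of the other 41 tested members with an exon length, 16 were called and the median was -0.70. Cfap36, a partner of the small GTPase ARL3, and Cfap97 had log2 fold changes of 0.12 and 0.18. The summed CPM of all 60 members, to which these abundant genes contribute most, was 462 to 489 in controls and 357 to 403 in Sufu-cKO samples.

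**Figure D3:**
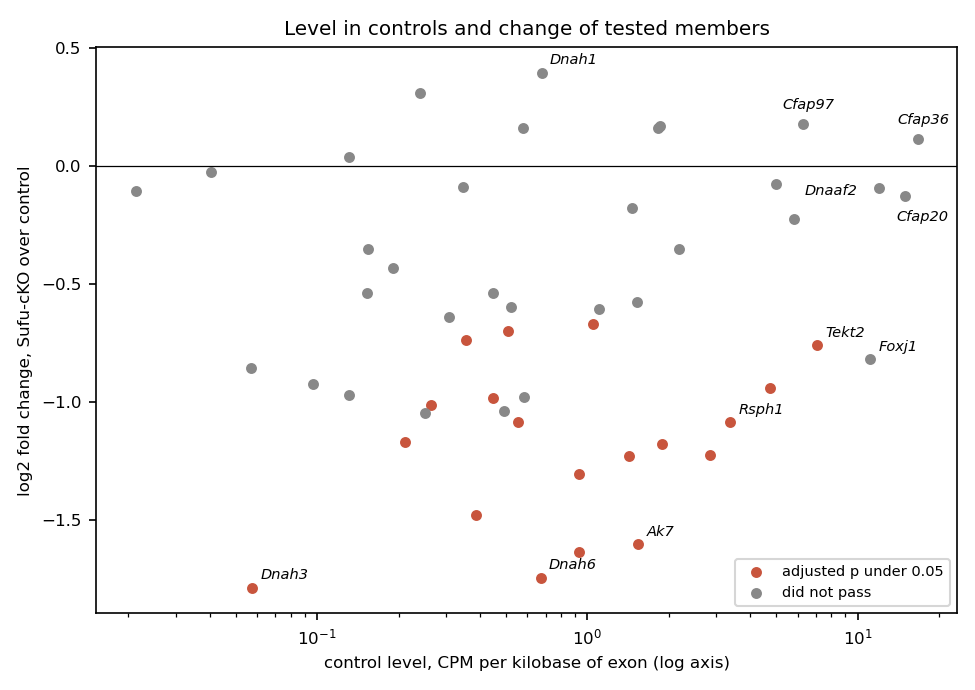
Mean control level per kilobase of exon (log axis) against the log2 fold change, for the 51 tested members with an exon length. Cfap36, Cfap20, Dnaaf2 and Cfap97 lie to the right near 0, and red points (adjusted p under 0.05) lie between -0.67 and -1.79.

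A second list of motile cilia genes that the symbols above do not cover held 78 genes found in the counts. It was chosen from textbook knowledge of the pathway, with earlier results of these data known. Of 71 tested, 25 were lower (35.2%) and 1 was higher (1.41%), against 5.64% and 5.34% of all tested genes. The median log2 fold change was -0.27, against 0.01 over all tested genes. Of 12 tested regulators that act above or beside Foxj1, 2 were lower. Gmnc, which starts the multiciliated cell programme, was at 30.6 ± 5.23 and 23.1 ± 7.55 CPM (edgeR adjusted p = 0.343), and Mcidas, which follows it, at 8.26 ± 2.10 and 6.04 ± 0.916 CPM (adjusted p = 0.145). Rfx2 and Rfx3 had log2 fold changes of -0.05 and 0.02, and both changed sign when single samples were left out. Rfx4, an RFX factor of neural progenitors, was 1.26-fold lower without overlap (78.02 ± 5.76 against 61.9 ± 4.99 CPM, edgeR adjusted p = 0.0120). Cdc20b, a gene of multiciliated cells, fell from 7.52 ± 1.67 to 4.07 ± 0.887 CPM (adjusted p = 0.0130), a call lost without Cont_345 (0.0503).

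Structural genes of the second list held most of its calls. Armc4, needed to dock outer arms, had 1.68, 1.53, 0.979 and 0.904 CPM in the controls and 0.298, 0.211, 0.527 and 0.129 CPM in the Sufu-cKO samples (4.24-fold lower, edgeR adjusted p = 0.00443). Wdr63, an intermediate chain of an inner arm, had 5.49, 5.18, 3.92 and 5.05 CPM and 1.92, 2.15, 1.99 and 1.32 CPM in the same order, and the groups were far apart (log2 fold change -1.41, edgeR adjusted p = 0.000472). Dnali1 (-1.25), Dynlrb2 (-1.12) and Ttc25 (-0.71) completed the called light chain and docking genes, 5 of 12 tested. Zmynd10 (-1.10) was the only called assembly factor of 9 tested.

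Of the other central pair and spoke genes, 6 of 10 were lower: Dnajb13 (-1.57), Iqub (-1.20), Spef2 (-1.15), Nme5 (-1.10), Kif9 (-0.90) and Spef1 (-0.35). Spef1, a microtubule bundler that other cells also use, was far more abundant than the rest, at 75.2 ± 2.47 and 58.9 ± 2.96 CPM without overlap (edgeR adjusted p = 0.00182). Hydin, a giant central pair protein, was apart between groups at 2.76 ± 0.250 and 1.92 ± 0.345 CPM but did not pass (adjusted p = 0.0913), and Stk36, a kinase of the central pair related to the fly hedgehog kinase Fused, was at 51.0 ± 1.47 and 44.9 ± 5.24 CPM (adjusted p = 0.192). In the nexin-dynein complex, Tcte1 (-1.37), Iqcd (-0.93), Ccdc65 (-0.88) and Lrrc48 (-0.75) were lower, whereas Gas8 was at 30.1 ± 0.613 and 29.0 ± 4.96 CPM. Called genes among the other axonemal ones included Meig1 (-1.48), Spata18 (-1.26), Daw1 (-1.20), Ccdc113 (-1.15), Enkur (-0.92) and Lrrc23 (-0.83). Ulk4, a kinase-like gene, was the 1 that rose (28.2 ± 5.67 against 41.4 ± 3.18 CPM, edgeR adjusted p = 0.0134), and it lost the call without Cont_365 (0.0562). Of the 25 lower genes, 15 were called in each of the 8 fits that leave out 1 sample. Besides Cdc20b, calls were lost for Dynlrb2 without Cont_365 (edgeR adjusted p = 0.0632), Iqcd without Cont_345 (0.0590) and Ccdc65 without Cont_345 or Cont_365 (up to 0.0560). Ccdc113 lost its call without Cont_345, Mut_295 or Mut_340 (up to 0.0773), and Daw1 without Cont_294, Cont_345, Mut_317 or Mut_340 (up to 0.0591). Lrrc23 lost it without Cont_294, Cont_365, Cont_370 or Mut_317 (up to 0.0958), Enkur without any 1 control or Mut_317 (up to 0.111), and Ttc25 in every fit but that without Mut_295 (up to 0.112).

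**Figure D4:**
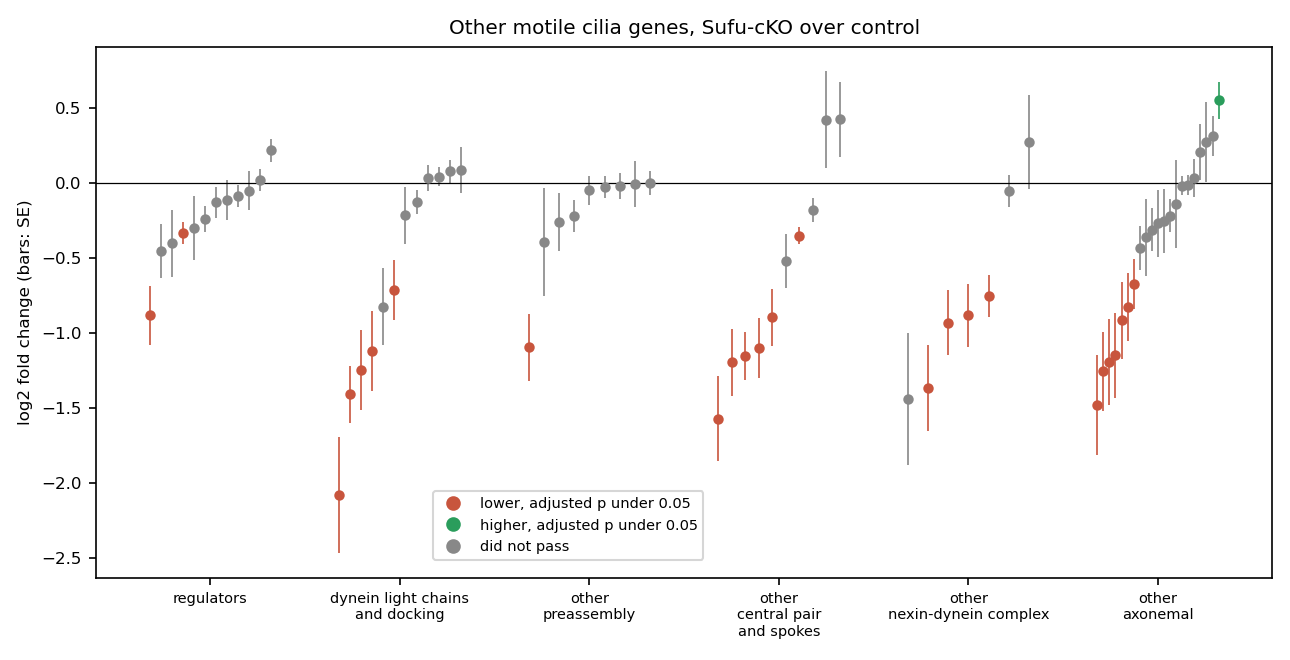
Log2 fold change, with the standard error as a bar, of the 71 tested genes of the second list, sorted within each role. Red points passed as lower (25 genes), the green point as higher (Ulk4) and grey points did not pass.

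Markers of cells that carry motile cilia, or that neighbour them, were read in the same samples. Choroid plexus epithelium, whose cells are multiciliated, was represented by 12 genes, and no member of the list was at 0 in all samples. Of 11 tested, 6 were lower and 0 higher, against 5.64% and 5.34% of all tested genes. Folr1, Htr2c and Calml4 were called in all 8 fits that leave out 1 sample. Sostdc1 and Slc4a5 were called in 4 of these fits, and Kcne2 in 1. The summed level of the 12 genes was 576 to 853 CPM in controls, 289 to 316.7 CPM in Mut_295, Mut_317 and Mut_337, and 104 CPM in Mut_340. Ttr was the largest part of this sum in every sample. Mut_340, the lowest sample for most cilia genes and for Foxj1, was also the lowest for the sum of these markers, though not for each: Aqp1 was lowest in Mut_317 and Kl in Mut_295. Ttr, the transthyretin gene that defines this epithelium, was at 345.4 to 595 CPM in controls and 49.2 to 195 CPM in Sufu-cKO samples, apart but not called (edgeR adjusted p = 0.0591), and called without Mut_340 (0.00632). Clic6, a chloride channel gene, behaved alike (79.0 ± 6.30 against 31.4 ± 12.8 CPM, adjusted p = 0.0514). The list had 9 calls without Mut_340 and 3 without Cont_294, Cont_345 or Cont_365.

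The cortical hem and roof plate, from whose edge the choroid plexus grows, had 1 of 12 tested markers lower, Wnt5a (45.2 ± 2.67 against 29.5 ± 0.364 CPM, edgeR adjusted p = 6.93e-05). Their summed level overlapped, at 366 to 467 CPM in controls and 319 to 448 CPM in Sufu-cKO samples, with Mut_340 lowest, and Gdf7 was at 0 in all samples. Lmx1a, the defining marker, was at 24.9 ± 3.34 and 17.6 ± 3.95 CPM (adjusted p = 0.0720). Of the floor plate list, Spon1 and Ntn1 rose (log2 fold changes 3.89 and 2.46), with Shh and Foxa2 near 0 as given above. Endothelial markers summed to 199 to 227 CPM in controls and 164 to 200 CPM in Sufu-cKO, with 2 of 3 lower (Kdr and Cdh5), and microglial markers to 28.3 to 34.9 and 21.5 to 26.5 CPM, also with 2 of 3 lower (Csf1r and Cx3cr1). The calls of Cdh5, Csf1r and Cx3cr1 were each lost in 6 of the 8 fits that leave out 1 sample. Of the 5 dorsal progenitor markers, Emx1 (log2 fold change -0.73, edgeR adjusted p = 0.00831) and Emx2 (-0.72, 8.41e-05) were lower, and Pax6 (0.54, 0.000233) and Sox2 (0.58, 0.000347) higher. Their sum was 674 to 816 CPM in controls and 811 to 880 CPM in Sufu-cKO. The labels give the cre allele, which sits at Emx1, for the Sufu-cKO group only. For Emx1 itself, and for every other gene here, an effect of that allele and of the loss of Sufu cannot be told apart. Of 4 markers of young neurons, Dcx (0.47, edgeR adjusted p = 0.00156) and Tbr1 (0.29, 0.00656) were higher. Tubb3 (0.15, 0.513) and Neurod6 (-0.28, 0.486) did not pass, and Neurod6 had the opposite sign. The 4 markers summed to 1308 to 1554 CPM in controls and 1608 to 1796 CPM in Sufu-cKO. The hedgehog feedback genes Gli1, Ptch1 and Hhip rose. The ventral progenitor and GABAergic markers had 0 of 6 calls, although 0 of the 6 log2 fold changes were below 0 and their median was 1.46. Their summed levels varied widely within each group, at 6.02 to 96.2 CPM in controls and 26.9 to 179.6 CPM in Sufu-cKO. The part of any of these cell populations in the levels of the cilia genes was not tested.

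**Figure D5:**
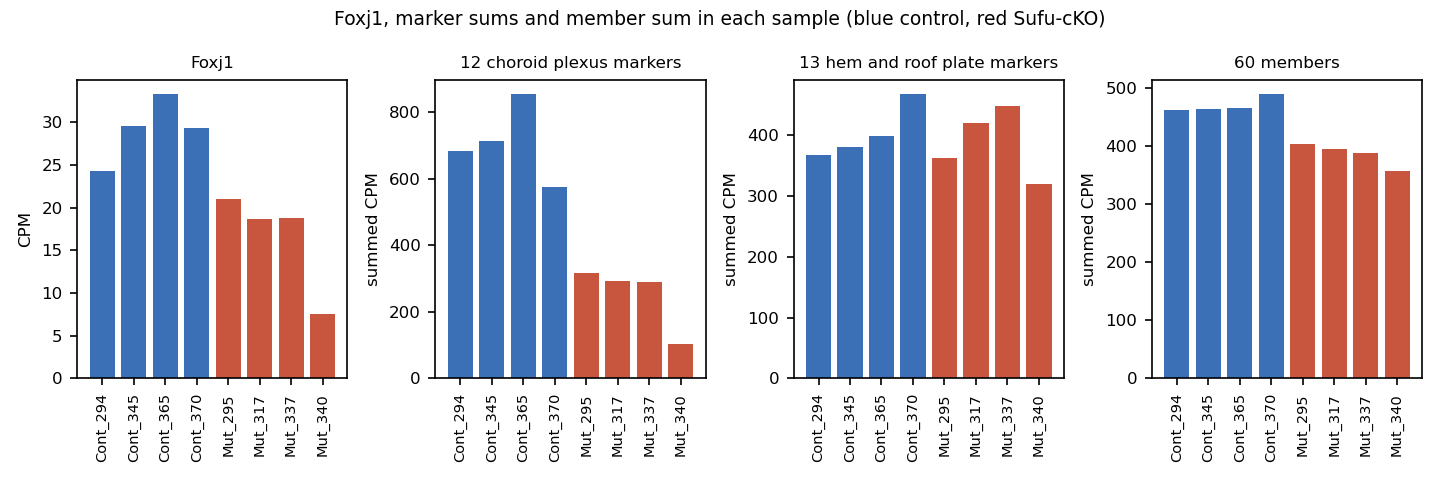
Foxj1 (CPM), the summed CPM of 12 choroid plexus markers, of 13 cortical hem and roof plate markers and of all 60 members in each sample, controls in blue and Sufu-cKO in red. Ttr is the largest part of each choroid plexus sum. Foxj1, the choroid plexus sum and the member sum are lower in every Sufu-cKO sample than in every control and lowest in Mut_340, and the hem and roof plate sums overlap.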

How the data were processed

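Total RNA was taken up with a Qiagen kit and made into stranded mRNA libraries, per the labels' protocols. Reads were aligned by STAR 2.4.2a to GRCm38, per the submitters' processing notes; how they were counted, and with which strand setting, is not given in the sources used here. Raw counts per gene, as the authors deposited them, were the values tested. The authors also deposited a normalised signal, found to be each count over 1 size factor per sample, together with their own ratio (fold change), p-value and false discovery rate. Symbols, biotypes and positions came from that file.

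Genes passing filterByExpr (minimum count 10, minimum total 15) were scaled by TMM and compared with edgeR 4.0.16 in R 4.3.3 (quasi-likelihood F-test, robust, 2-sided). Benjamini-Hochberg adjustment ran over all 15382 tested genes, which held 99.94% of counts, and an adjusted p under 0.05 made a call. CPM use TMM-scaled library sizes, errors after ± are SDs over 4 samples, and each SE follows from the estimate and its F. Levels per kilobase used GENCODE M21 exons, where 59 of 60 members were found. Within groups every pair of samples differed by more than sampling noise, and each counted once. The test was checked on simulated data. Alternatives were 3 other scalings, 2 other filters, edgeR without robust estimation, DESeq2 1.42.0, limma-voom (limma 3.58.1) and leaving out each sample.

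Members and lists were chosen with earlier results of these data known. The genes named were Sufu, Foxj1, every called member, the 5 uncalled members with the smallest p, the 10 most abundant per kilobase, the 3 untested members with most counts, members within 10 Mb of Emx1 or Sufu, every called gene of the second list with 8 of its regulators and core genes, and the most abundant markers. Other members and some less abundant markers, such as Wnt5a and Emx1, are named to complete a role or a count, and were chosen after their values were seen. A few genes covered by this rule enter the counts but are not reported here.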

Additional observations from a re-analysis of the deposited data

Results flagged for a closer look

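Of 120 groups of 4 samples, the control and the Sufu-cKO group of each of the 60 members, 9 held a sample whose gap to the nearest other took more of the group's range than Dixon's 95% critical value allows. Chance alone picks about 5 in 100 such groups. Cfap70 was at 0.614 CPM in Mut_340, below 1.06 to 1.13 CPM in the other Sufu-cKO samples. Among controls, Dnaaf1 was at 1.021 CPM in Cont_345 (28 counts), above 0.583 to 0.632 CPM in the others, Dnah7b at 4.07 CPM in Cont_370, above 2.08 to 2.18 CPM, and Spag16 at 5.04 CPM in Cont_294, above 2.84 to 3.13 CPM. Rsph3a was at 0.858 CPM in Cont_294, below 1.93 to 2.09 CPM, and is 1 of a pair of near copies whose reads may be split. Rsph14 was at 0.365 CPM in Cont_345 (10 counts), above 0.169 to 0.190 CPM. Rsph6a at 0.0293 CPM in Mut_337, and Tekt3 at 0.0282 CPM in Cont_370 and 0.0352 CPM in Mut_317, each stand for 1 count beside 0 in the other samples of their group. Their causes were not tested.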

How the results depend on the processing

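No paired analysis was possible because the control and Sufu-cKO samples share no replicate number. Members called lower numbered 17 to 20 over the other scalings, filters and tests, and 14 to 20 with 1 sample left out. Members called higher numbered 1 with DESeq2 and 0 to 1 with 1 sample left out. Over all genes, leaving out 1 sample gave 542 to 897 lower and 537 to 939 higher, with the fewest without Cont_345, against 867 and 822 in all 8. Genes of the second list called lower then numbered 18 to 27, and higher 0 to 1. Choroid plexus markers called lower numbered 3 to 9, and hem and roof plate markers 1 to 3 lower and 0 to 1 higher. Sign changes among the named genes touched only genes that were not called. Rfx3 was at -0.0011 with upper quartile scaling and -0.00093 with library totals, and Dnah8 at 0.0278 with limma-voom. With 1 sample left out, the log2 fold change ran from -0.155 to 0.0335 for Gas8, -0.128 to 0.0319 for Rfx2, -0.0259 to 0.0762 for Rfx3, -0.162 to 0.0548 for Rspo2, -0.0334 to 0.101 for Rspo3, -0.0549 to 0.280 for Dnaaf3, -0.632 to 0.149 for Dnah17, -0.132 to 0.331 for Dnah7b, -0.224 to 0.0734 for Dnah8 and -0.0583 to 0.258 for Rsph3a. No scaling moved the median of all genes by over 0.1 on the log2 scale. Members with few reads are limited by counting error, as Dnah3 and Tekt4 with 2 counts each in Mut_340.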
